A study of Mus musculus with 8 samples.

Results

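The cytosolic ribosomal proteins were taken as the protein-coding genes whose mouse symbol is Rpl or Rps followed by a number, with the endings that single proteins and their paralogs carry, together with Rplp0, Rplp1, Rplp2 and Rpsa. The S6 kinases, whose symbols start with Rps6k, were left out. This gave 84 of the 55359 genes listed in the data, 33 of the small and 51 of the large ribosomal subunit, and no measured value entered the choice.

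Bone marrow-derived Mϕ (BMDMs) of male and female C57BL/6 wildtype mice were grown with 20 ng/mL M-CSF and 20 ng/mL GM-CSF, and total RNA was sequenced after depletion of rRNA. Naïve Mϕ were left alone (Ctrl) or received LPS (100 ng/mL) with IFNγ (100 U/mL) for 6 h (LPS). Efferocytic Mϕ were first co-cultured for 16 h with 5 apoptotic NIH-3T3 CA (caspase activatable) cells per Mϕ in the presence of 10 nM dimerizer, washed, and then left alone (Eff) or given the same LPS/IFNγ for 6 h (LPSEff). Each group had 2 samples, and all were isolated on CD45 beads before RNA was taken. The apoptotic cells came from 1 clone of a mouse fibroblast line in which the dimerizer activates a caspase, so that a fibroblast transcript and a Mϕ transcript of the same gene cannot be told apart by mapping. Neither the labels nor the methods say whether the 2 samples of a group came from separate mice, and p-values then measure only the spread between these samples, which may be technical.

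Each ribosome is built from a small subunit, which reads the mRNA, and a large subunit, which joins the amino acids, and every ribosomal protein except those of the stalk is present once per particle. Vertebrate ribosomal protein mRNAs belong to the terminal oligopyrimidine (TOP) mRNAs, which start with a C followed by a run of C and T, and whose translation is set by mTOR through the protein LARP1. Their synthesis can therefore change while the mRNA level does not. Ribosomal protein mRNAs have also been copied back into mammalian genomes many times as processed pseudogenes, and a read that aligns equally well to a gene and to its copy cannot be assigned to either. In Mϕ, RPL13A is known to leave the ribosome after IFNγ and to join the GAIT complex, which blocks the translation of some inflammatory mRNAs.

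The TOP start is shown for 6 members, since it is what ties these genes to shared control of translation. Capitals mark a C followed by at least 4 C or T that begins at the annotated start or up to 5 bases after it, and the start is base 11 of the 30 bases (RefSeq, GRCm38.p6, strand of the gene).

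Rps6: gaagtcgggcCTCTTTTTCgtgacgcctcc
Rps27: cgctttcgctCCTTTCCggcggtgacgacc
Rpl28: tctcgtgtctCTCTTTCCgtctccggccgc
Rplp2: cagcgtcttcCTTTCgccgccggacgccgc
Rpl13a: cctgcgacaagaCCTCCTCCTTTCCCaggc
Rps3a1: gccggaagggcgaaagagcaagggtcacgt

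These windows lie at chr4:86857348-86857377 on the minus strand (Rps6), chr3:90213629-90213658 on the minus strand (Rps27), chr7:4792955-4792984 on the plus strand (Rpl28), chr7:141447641-141447670 on the plus strand (Rplp2), chr7:45128726-45128755 on the minus strand (Rpl13a) and chr3:86142649-86142678 on the minus strand (Rps3a1). Rps3a1 is shown as a member whose annotated start has no such run within reach. Of the members, 63 had a start in the RefSeq table that was not on chromosome 18. At the start itself, 13 of these genes (20.6%) had the run, against 3.01% of the 27025 genes with a start, and up to 5 bases after it 23 members (36.5%) had it, against 13.4% of all genes. Among 69 mitochondrial ribosomal protein genes, 0% had the run at the start and 15.9% within 5 bases. Only the strand of the gene was searched, and a gene counted once if any of its starts had the run.

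Copies can limit which reads are counted on these genes. Reads were assigned to genes by the authors through htseq-count with default settings, under which a read that aligns to several places is dropped. For 7 members, 30 bases from the middle of the longest coding exon are shown (GENCODE canonical transcript, GRCm39, strand of the gene). Lower case marks bases that lie in some 30-base window with an exact copy elsewhere in the genome, and capitals mark bases that lie in none.

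Rpl8: GCTGGCCCGAGCCTCCGGGAACTACGCCAC
Rpl39l: gtcccattccACAATGGATTCAGATGAAAA
Rps6: aaggaggaggctgcagaatacgctaaactt
Rpl27: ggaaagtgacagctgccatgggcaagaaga
Rps16: accctgcttgtagctgacccccgtcgctgc
Rps3a1: ccagataagaaagacatcctatgcgcagca
Rpl28: aattcaccgcaagaccgtcggagtggagcc

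The 30 bases of Rpl8 (chr15:76789112-76789141, plus strand, exon 3) and Rpl39l (chr16:9992235-9992264, plus strand, exon 3) had 0 exact copies elsewhere. Those of Rps6 (chr4:86773053-86773082, minus strand, exon 5) had 8 copies, those of Rps3a1 (chr3:86046437-86046466, minus strand, exon 4) had 7 and those of Rpl27 (chr11:101334397-101334426, plus strand, exon 2) had 6. Rps16 (chr7:28051975-28052004, plus strand, exon 5) and Rpl28 (chr7:4796549-4796578, plus strand, exon 2) had 3 copies each.

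Over whole coding sequences, a member had an exact copy elsewhere in the genome for a median of 87.5% of its 50-base windows. All windows were copied in 27 members, at least 50% but not all in 38, and under 50% in 19. The median was 0% for the 78 mitochondrial ribosomal proteins, of which 51 had no copied window, 0% for the 22 ribosome assembly factors and 30.8% for 19 other TOP mRNAs. GENCODE listed 318 rows in the data as pseudogenes named for 61 of the members, and 300 of them held reads.

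The members differed widely in level, and the median level was highest among those with the fewest copied windows. Mean normalized counts over the 8 samples were lowest for Rpl10l (1.41) and had a median of 169, and 28 members were under 100 while 10 were at 1000 or above. The 6 members with the most counts held 49.8% of all counts on the set. Per kb of coding length, the median level was 1751 normalized counts in the members with under 50% of windows copied, 464 in those with 50% or more but not all copied and 143 in those copied throughout. Over the 84 members, which share libraries and differ in length and sequence, the level per kb and the copied share had a Pearson r of -0.30 (log2 level) and a Spearman rho of -0.54. Rps3 (6878 normalized counts per kb of coding length) and Rpl8 (3673) had 8.09% and 8.86% of windows copied, and Rps6 (31.8) and Rpl28 (27.4), which every ribosome also holds, had 100%. Rps16 (1009) and Rpl38 (1428) had 100% as well. Reads from outside the coding sequence are counted too, and over the whole transcript 19.9% of the 50-base windows of Rpl28 and 92.6% of those of Rps6 were copied. Whether the copies set the levels was not tested, and no order of mRNA abundance between members was read from these numbers.

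**Figure D1:**
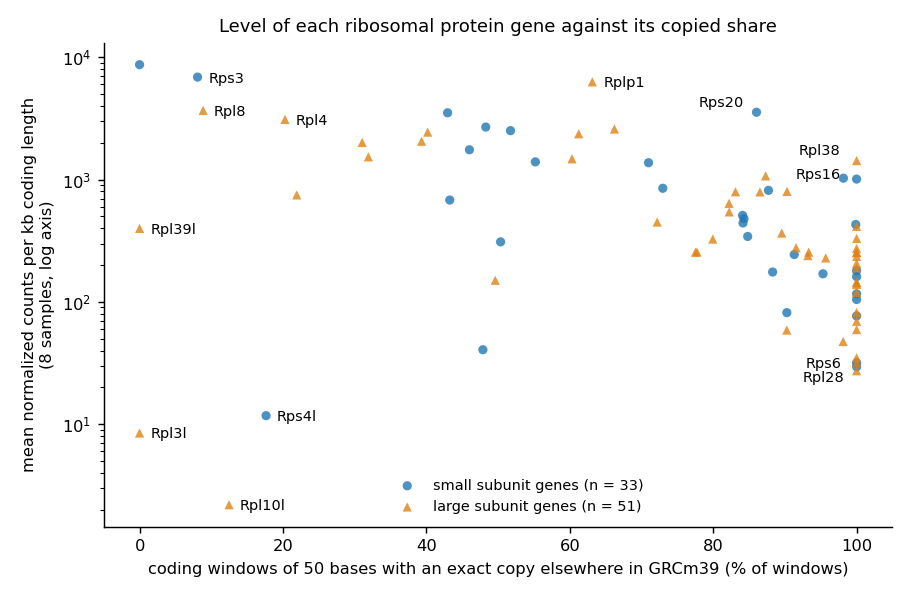
Each point is 1 of the 84 genes, with the share of its 50-base coding windows that have an exact copy elsewhere in GRCm39 on the x axis (%) and its mean normalized count per kb of coding length over 8 samples on a log y axis. Rps3, Rpl8 and Rpl4 stand at the top left, the 27 genes with all windows copied stand at the right edge, and the low points at the left are the paralogs Rpl3l, Rpl10l and Rps4l.

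By mean normalized counts per kb of exon, all annotated exons joined, Rplp1 (3663) and Rpl8 (1950) were among the 3 highest members. Rpl10l (0.811), Rpl28 (3.22) and Rps6 (3.62) were the lowest.

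Together the members held a small share of the reads. The summed normalized counts of the 84 genes were 39780 and 46347 in Ctrl and 42737 and 48218 in LPS. They were 42002 and 41547 in Eff and 40796 and 39837 in LPSEff. The Ctrl values overlapped with those of each other group, and both LPSEff values lay below both LPS and both Eff values. As a share of all normalized counts, the set held 0.633% ± 0.047 (SD, n = 2) in Ctrl, 0.506% ± 0.0025 in LPS, 0.621% ± 0.024 in Eff and 0.439% ± 0.026 in LPSEff. The share was lower in the 4 samples with LPS/IFNγ than in the 4 without it, while the sum was not, because the normalized counts of all genes summed to between 6.59e+06 and 6.95e+06 without and between 8.47e+06 and 9.49e+06 with LPS/IFNγ. No test was made on the sums, since with 2 samples in each group the smallest p of an exact two-sided permutation test is 0.333. The pseudogene rows together held between 4055 and 5006 normalized counts per sample.

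**Figure D2:**
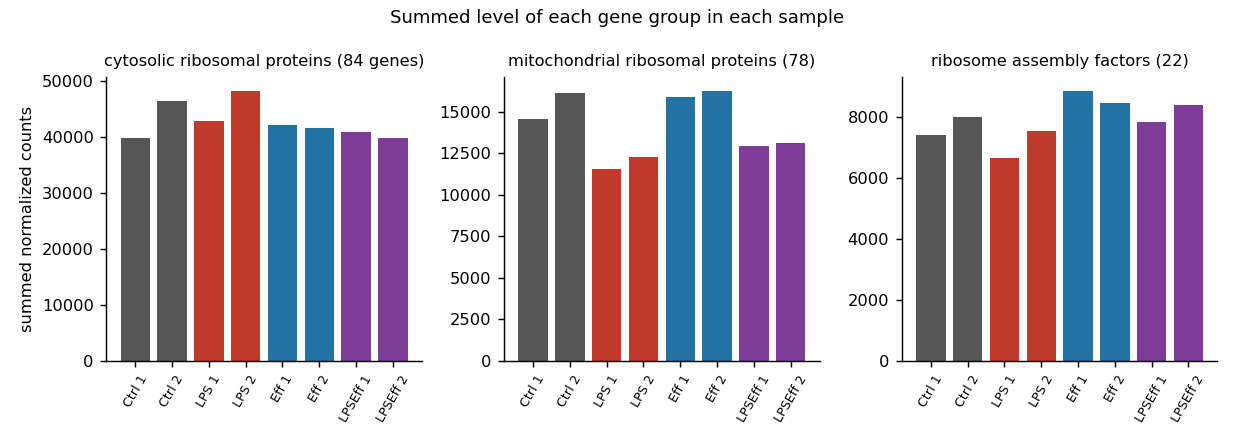
Bars give the summed normalized counts of 3 gene groups in each of the 8 samples, with the y axis from 0. The sums of the 84 cytosolic ribosomal proteins lie between 39780 and 48218 in all groups, whereas those of the 78 mitochondrial ribosomal proteins lie between 11551 and 13151 with LPS/IFNγ and between 14557 and 16288 without.

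Depth was between 3481288 and 12020918 recovered reads per sample, the lowest in 1 of the Ctrl samples, so that 3 reads correspond to between 1.73 and 5.71 normalized counts. Of the 84 members, 82 had a mean of at least 10 normalized counts and were tested. Rpl10l and Rps4l did not reach it. All 10 Mϕ markers were detected, among them Lyz2, a lysozyme, with 54327 to 103975 normalized counts, whereas 5 of 8 markers of other leukocytes stayed below the threshold. The 20 fibroblast markers summed to 1401 and 1556 normalized counts in Ctrl and to 3345 and 6066 in LPS, against 5422 and 8820 in Eff and 12084 and 15189 in LPSEff. Of the 18 tested, 8 rose in Eff vs Ctrl, as did 10 in LPSEff vs LPS (limma, as below), among them the collagen gene Col1a1 with 7.62 and 12.1 normalized counts in Ctrl and 193 and 284 in Eff. In LPS vs Ctrl, Lox, Pdgfrb, Col5a1 and Fbn1 of this list rose too, and Lox and Pdgfrb rose in LPSEff vs Eff. Of the Mϕ markers, Adgre1 and Cd14 rose with LPS/IFNγ in both comparisons and Fcgr1 in LPSEff vs Eff, and of the other leukocyte markers S100a8 rose in LPS vs Ctrl and in Eff vs Ctrl. Fewer cells of a type and less RNA per cell cannot be told apart in such bulk samples.

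Differences between groups are given below as differences of log2(normalized count + 1), on which low genes appear to differ less than they do. Calls were made with limma over the 16309 tested genes, at a p of less than 0.05 after Benjamini-Hochberg adjustment, with 2 samples per group. This main fit did not use the sample numbers 1 and 2, which the groups share. Fits that paired samples by number (replicate block) were alternatives.

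The first comparison asked what 6 h of LPS/IFNγ did to these genes, in naïve Mϕ (LPS vs Ctrl) and in efferocytic Mϕ (LPSEff vs Eff). None of the 82 tested members was called in either by the main fit, although 24.0% of all tested genes were called in LPS vs Ctrl and 19.7% in LPSEff vs Eff. At an unadjusted p under 0.05 stood 1 member in naïve and 4 in efferocytic Mϕ. Here and below, the share of all tested genes at this unadjusted threshold is not given, so such counts are not read as results about the members. Without the block, edgeR's quasi-likelihood test and DESeq2 also called 0 members in both. With the replicate block limma called 6 and 5 members, against 41.2% and 37.0% of all tested genes. No label says what the sample numbers mark. The median difference of the members was -0.07 (quartiles -0.26 and 0.21) in naïve and -0.09 (quartiles -0.28 and 0.11) in efferocytic Mϕ, against -0.01 and 0.01 over all tested genes. The quartiles over all tested genes were wider, at -0.53 and 0.57 and at -0.47 and 0.55. Within 1.5-fold of no difference lay 74 members (90.2%) in each comparison, against 52.4% and 55.2% of all tested genes. The 95% interval of the difference lay wholly within 2-fold for 46 members in naïve and 49 in efferocytic Mϕ, and wholly within 1.5-fold for 8 and 9. For the remaining members the interval reached beyond 2-fold.

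**Figure D3:**
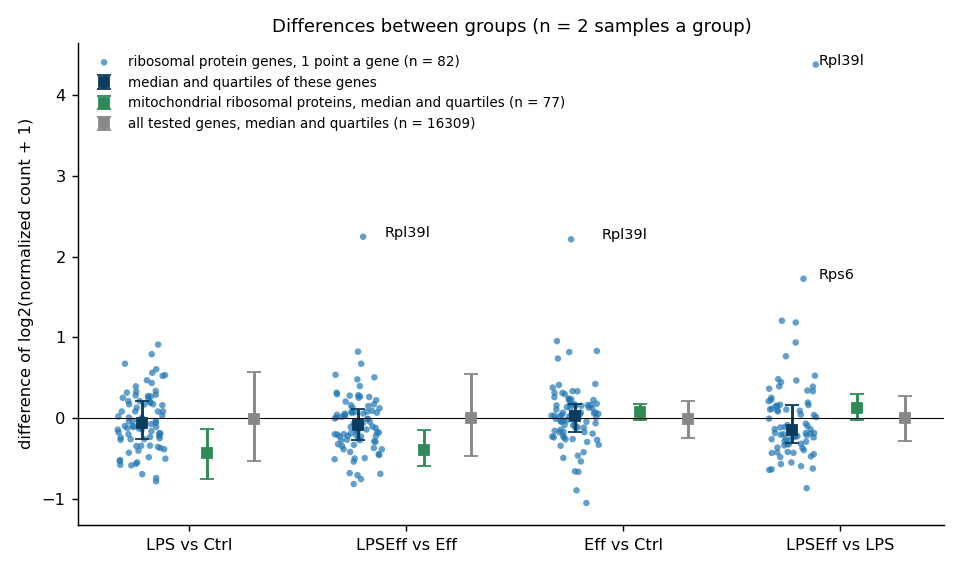
Each blue point is the difference of 1 of 82 cytosolic ribosomal protein genes in 1 of 4 comparisons, on the scale of log2(normalized count + 1), beside squares with bars for the median and quartiles of these genes, of 77 mitochondrial ribosomal proteins and of all 16309 tested genes. The median of the cytosolic genes lies between -0.14 and 0.03 in all 4, that of the mitochondrial genes at -0.43 and -0.39 with LPS/IFNγ, and Rpl39l stands apart in 3.

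The members with the most countable reads show how small the differences were. Rpl8, a protein of the large subunit, had 2517 and 2979 normalized counts in Ctrl and 2697 and 2861 in LPS. Its difference was 0.02 (95% interval -0.38 to 0.42), and the LPS values lay between the Ctrl values. Rps3, which lies at the mRNA entry channel, had 5082 and 5644 normalized counts in Ctrl and 4747 and 5735 in LPS, with a difference of -0.04 (-0.47 to 0.39). Rplp0, the base of the stalk that recruits translation factors, had 1481 and 1470 in Ctrl and 1564 and 1453 in LPS, with a difference of 0.03 (-0.36 to 0.42). The groups also overlapped for the stalk proteins that bind to it, of which Rplp2 had the wider gaps. Rplp1 had 2060 and 2241 normalized counts in Ctrl, 2539 and 1836 in LPS, against 2650 and 1917 in Eff and 2248 and 1712 in LPSEff. Rplp2 had 417 and 989 in Ctrl, 772 and 1237 in LPS, against 642 and 1020 in Eff and 724 and 1340 in LPSEff. Sample 2 was the higher in each group for Rplp2, which was called higher in LPS vs Ctrl with the replicate block.

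Rpl13a, the GAIT member, was not called by limma with the deposited scaling in any comparison, but was called lower in both LPS/IFNγ comparisons with equal totals and with quantile normalization. It had 1607 and 1845 normalized counts in Ctrl, 1295 and 1789 in LPS, against 1463 and 1476 in Eff and 1229 and 1198 in LPSEff, so that Ctrl and LPS overlapped and both LPSEff values were the lowest of all. Of its 5 GAIT partners, the RNA-binding protein gene Syncrip fell in LPS vs Ctrl from 897 and 917 normalized counts to 326 and 509 (difference -1.15, SE 0.27, limma adjusted p = 0.0184). The other 4 (Eprs1, Gapdh, Dapk1 and Dapk3) were not called in the main fit. Dapk1 and Eprs1 were called lower in LPS vs Ctrl with equal totals and with quantile normalization, and Eprs1 in LPSEff vs Eff with equal totals. With the replicate block Dapk1 was called lower in LPS vs Ctrl. Rpl5 and Rpl11, which with the 5S rRNA form a particle that restrains MDM2, had 100% of their windows copied. Rpl5 had 139 and 131 normalized counts in Ctrl and 125 and 125 in LPS, and 138 and 141 in Eff and 110 and 109 in LPSEff, lower in all 4 samples with LPS/IFNγ than in all without. Rpl11 had 81.9 and 88.5 in Ctrl, 56.9 and 78.2 in LPS, against 84.1 and 65.6 in Eff and 66.5 and 71.1 in LPSEff.

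Rpsa, which also serves as a laminin receptor precursor, had 320 and 329 normalized counts in Ctrl, 423 and 351 in LPS, against 414 and 303 in Eff and 540 and 359 in LPSEff. Rps19, the gene most often mutated in Diamond-Blackfan anaemia, had 750 and 900 in Ctrl, 1022 and 1040 in LPS, against 939 and 790 in Eff and 867 and 787 in LPSEff. Rpl22 had 876 and 942 in Ctrl, 695 and 915 in LPS, against 669 and 845 in Eff and 595 and 638 in LPSEff. None of these was called with the deposited scaling. Rps27a, which is made as a fusion to ubiquitin, had between 38.6 and 71.3 normalized counts in the 8 samples.

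The 3 largest differences in each direction were given without a call in the main fit. In LPS vs Ctrl the highest were those of Rps16 (0.91, SE 0.68), Rpl24 (0.79, SE 0.47) and Rps20 (0.67, SE 0.40), and the lowest were those of Rps28 (-0.78, SE 0.45), Rpl10a (-0.74, SE 0.49) and Rpl3l (-0.70, SE 1.10). Their limma adjusted p-values ranged from 0.262 to 0.711. In LPSEff vs Eff the highest were those of Rpl39l (2.25, SE 1.10), Rpl24 (0.82, SE 0.47) and Rps3a1 (0.67, SE 0.27), and the lowest were those of Rpl10a (-0.82, SE 0.49), Rpl17 (-0.76, SE 0.63) and Rps28 (-0.71, SE 0.45), with adjusted p-values from 0.122 to 0.466. Most of these genes had low counts, as with Rpl24 at 11.4 and 11.6 normalized counts in Ctrl against 23.3 and 18.3 in LPS. Rps16 moved with the sample rather than the group, with 211 and 272 normalized counts in Ctrl, 740 and 275 in LPS, against 751 and 213 in Eff and 764 and 308 in LPSEff. It was high in 3 samples, sample 1 each of LPS, Eff and LPSEff. In LPS, Eff and LPSEff the gap between the samples of the group was larger than the gap between any group means.

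**Figure D4:**
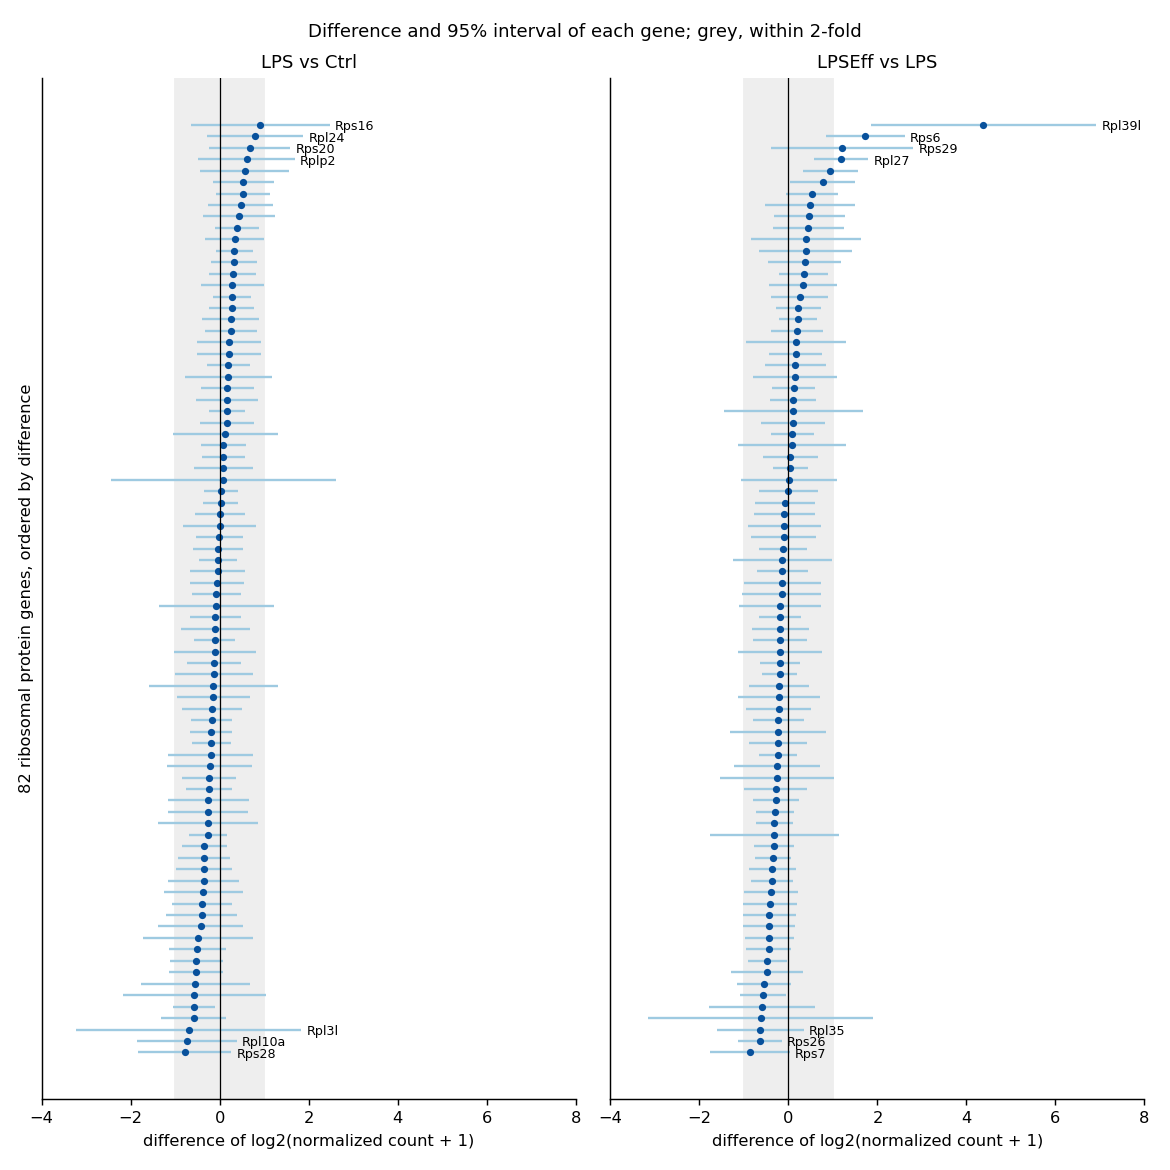
Points give the difference of log2(normalized count + 1) for each of 82 genes, ordered by size, with lines for the 95% intervals and a grey band for differences within 2-fold, for LPS vs Ctrl on the left and LPSEff vs LPS on the right. On the left 46 intervals and on the right 41 lie within the band, and the interval of Rpl39l on the right runs from 1.85 to 6.91.

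When the 4 samples with LPS/IFNγ were set against the 4 without, regardless of efferocytosis, 2 members (2.44%) had all values higher (Rpl24 and Rps4x) against 17.0% of all tested genes, and 3 (3.66%) had all values lower (Rpl12, Rpl5 and Rpl7l1) against 18.9%. Rpl7l1, a paralog of Rpl7 that is thought to act in ribosome assembly rather than in the ribosome, came nearest to a call in LPS vs Ctrl in the main fit. It had 625 and 678 normalized counts in Ctrl and 401 and 472 in LPS (difference -0.58, SE 0.21, limma adjusted p = 0.0780), and 620 and 690 in Eff and 399 and 538 in LPSEff (-0.50, SE 0.21, limma adjusted p = 0.136). Only 21.9% of its windows were copied.

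The number of members called depended on the scaling between samples, while their median was below 0 in both comparisons under each of the 3 scalings tried. With the deposited scaling, the members' median in LPS vs Ctrl lay above 0 without LPS replicate 1 (0.06) and without Ctrl replicate 2 (0.01). It was 0.004 over the 66 members averaging at least 50 normalized counts. With samples rescaled to equal totals, the median of all tested genes shifted to -0.40 in LPS vs Ctrl and -0.44 in LPSEff vs Eff. The members' median became -0.46 and -0.54, against that shift, and 11 and 19 members were called lower (13.4% and 23.2% of 82) against 26.5% and 26.7% of all tested genes. With quantile normalization 5 and 6 members were called lower (6.10% and 7.32%) against 14.1% and 12.9%. The members' median was -0.15 and -0.17, against -0.09 and -0.10 over all tested genes. Rpl13a, Rpl4, Rpl7l1, Rpl8 and Rps3 were called in both. With equal totals, Rpl12, Rpl13a, Rpl22, Rpl36a, Rpl7a, Rpl7l1, Rps15 and Rps18 were called lower in both. No member was called higher under either.

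Other genes that serve the ribosome did change with LPS/IFNγ. For comparison, 12.4% of all tested genes rose and 11.6% fell in LPS vs Ctrl, and 10.7% rose and 8.95% fell in LPSEff vs Eff. Of 22 ribosome assembly factors, 10 fell and 3 rose in LPS vs Ctrl, and 8 fell and 3 rose in LPSEff vs Eff, with medians of -0.58 in both. Rrp12, needed to export the small subunit from the nucleus, fell from 289 and 310 normalized counts in Ctrl to 49.1 and 63.0 in LPS (-2.41, SE 0.25, limma adjusted p = 0.000483). Tsr1, Wdr12, Nle1 and Nob1 fell as well, with differences of -1.99, -1.76, -1.83 and -1.66. Of the 3 that rose, Sbds acts in the release of eIF6, the product of Eif6, from the new large subunit. Sbds rose from 263 and 404 in Ctrl to 1031 and 1217 in LPS (1.78), and was the only one of the 3 also called with equal totals in both comparisons. Of 10 chaperones that each carry 1 ribosomal protein or few, 3 fell in LPS vs Ctrl and 2 in LPSEff vs Eff. They were Grwd1, which carries RPL3 (147 and 138 normalized counts in Ctrl, 23.3 and 31.5 in LPS, -2.35), Heatr3, which imports RPL5 (468 and 521 in Ctrl, 110 and 139 in LPS, -1.99), and Ncl, the nucleolar protein nucleolin, which was called in naïve Mϕ (-1.03) and had a difference of -0.65 in efferocytic Mϕ. The median over the 10 was -0.59 and -0.57.

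Of the 77 tested mitochondrial ribosomal proteins, which build a separate ribosome for the mitochondrial genome, 19 fell in LPS vs Ctrl and 9 in LPSEff vs Eff in the main fit. None rose, and the medians were -0.43 and -0.39. Over all tested genes 11.6% and 8.95% fell. With equal totals 48 fell in each comparison, against 26.5% and 26.7% of all tested genes. Among 19 other TOP mRNAs, which include elongation and initiation factors, only Pabpc1, the poly(A)-binding protein, was called in the main fit. It rose from 1352 and 1258 normalized counts in Ctrl to 2733 and 3037 in LPS (1.14, SE 0.23, limma adjusted p = 0.00974) and from 1273 and 1338 in Eff to 2750 and 4392 in LPSEff (1.41), and was not called with quantile normalization in LPS vs Ctrl. The median over these 19 was -0.19 and -0.12, and with equal totals 7 of them were called lower in each comparison. Fau, Rpl36al and Rack1, ribosomal proteins that the naming rule missed, were not called with the deposited scaling. Rack1, a scaffold on the small subunit, was called lower in both comparisons with quantile normalization and had between 6093 and 7629 normalized counts in the 8 samples.

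Of 12 regulators of TOP mRNAs and S6 kinases, 3 rose and 4 fell in LPS vs Ctrl. Larp1, which binds the TOP start, rose from 1070 and 674 normalized counts in Ctrl to 2319 and 1795 in LPS (1.26, SE 0.34, limma adjusted p = 0.0294), and Larp4b (0.72) and Mtor (0.56) rose too. With equal totals and with quantile normalization none of these 3 was called. Eif4ebp2, a repressor of cap-dependent initiation, fell from 1129 and 1006 to 481 and 546 (-1.05), and Cnbp (-0.76), Tial1 (-0.72) and the S6 kinase gene Rps6kb1 (-0.91) fell too. In LPSEff vs Eff, Eif4ebp2, Cnbp and Tial1 fell again, with differences of -1.20, -0.71 and -0.69, and 0 of the 12 rose.

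The second comparison asked what efferocytosis did, in unstimulated Mϕ (Eff vs Ctrl) and under LPS/IFNγ (LPSEff vs LPS). Again the main fit called 0 of 82 members in both, in comparisons where 0.251% and 0.773% of all tested genes were called. At an unadjusted p under 0.05 stood 2 members in the former and 8 in the latter, again without the share over all tested genes. In both, edgeR called 0 members and DESeq2 called Rpl39l. With the replicate block limma called 0 and 6 members, against 2.67% and 6.97% of all tested genes. The 6 were Rpl27, Rpl39l, Rps3a1 and Rps6, called higher, and Rps24 and Rps26, called lower. The members' median was 0.03 (quartiles -0.17 and 0.17) and -0.14 (quartiles -0.31 and 0.16), against -0.01 and -0.00 over all tested genes. Within 1.5-fold lay 73 members (89.0%) without LPS/IFNγ and 71 (86.6%) with it, against 82.5% and 78.2% of all tested genes. Of the mitochondrial ribosomal proteins, 96.1% and 97.4% lay within it. The 95% interval lay within 2-fold for 51 and 41 members. The mitochondrial ribosomal proteins, the assembly factors, the chaperones, the other TOP mRNAs, their regulators and the GAIT partners had 0 calls in both in the main fit. In LPSEff vs LPS, Tsr1 was called higher with equal totals and with quantile normalization, and Tsr1 and Rrp12 with DESeq2. With the replicate block, Bop1, Lsg1, Rrp12, Tsr1, Grwd1, Heatr3 and Mrpl12 were called higher there and Eef1a1 lower, and Mrps6 was called higher in Eff vs Ctrl.

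Members with more or fewer copies were set side by side in LPSEff vs LPS. As a description, the median difference was 0.16 over the 27 members with all windows copied, with 17 above and 10 below 0. It was -0.19 over the 38 with 50% or more but not all copied, with 8 above and 30 below 0, and -0.24 over the 17 tested members with under 50% copied. In Eff vs Ctrl the medians were 0.16, -0.06 and -0.03. These are counts of genes that share all libraries and were not tested.

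Rps6 (ENSMUSG00000028495), the S6 kinase target of the small subunit, and Rpl27 (ENSMUSG00000063316) are among the fully copied members, and both stood higher in efferocytic Mϕ. Rps6 had 15.2 and 15 normalized counts in Ctrl, 12.9 and 10.2 in LPS, against 33.3 and 22.6 in Eff and 41.2 and 39.3 in LPSEff. All 4 efferocytic samples were above all 4 naïve ones. The difference was 1.73 in LPSEff vs LPS (SE 0.39, 95% interval 0.84 to 2.61, limma adjusted p = 0.124) and was not called in the main fit. Rpl27 had 72.4 and 92.0 in Ctrl, 59.5 and 52.8 in LPS, against 163 and 131 in Eff and 112 and 147 in LPSEff, again without overlap. Its difference was 1.18 in LPSEff vs LPS (SE 0.26, 95% interval 0.58 to 1.79, limma adjusted p = 0.124) and 0.83 in Eff vs Ctrl (SE 0.26, limma adjusted p = 0.496). With the replicate block both genes were called higher in LPSEff vs LPS. No 50-base coding window of either gene is unique in the genome, and the Rps6 values rest on 8 to 52 reads per sample.

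Of the 82 members, 2 (2.44%) had all efferocytic samples above all naïve ones, Rps6 and Rpl27, against 2.83% of all tested genes, and 2 (2.44%) had all below, Rplp0 and Rps7, against 1.58%. Rplp0 had between 1453 and 1564 normalized counts in naïve and between 1209 and 1422 in efferocytic samples. Rps7 had 152 and 123 in Ctrl, 122 and 109 in LPS, against 94.6 and 56.5 in Eff and 90.3 and 43.1 in LPSEff, with a difference of -0.90 to Ctrl without and -0.87 to LPS with LPS/IFNγ (SE 0.39 each, adjusted p = 0.814 and 0.507). Both shares lie close to those over all tested genes.

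Rpl39l (ENSMUSG00000039209), the paralog of Rpl39 that is best known from male germ cells, had the largest difference of any member. It had 9.52 and 4.05 normalized counts in Ctrl, 3.88 and 11.2 in LPS, against 7.89 and 128 in Eff and 135 and 189 in LPSEff. The 2 Eff samples disagreed, 1 standing with the naïve samples and the other with LPSEff. The difference was 4.38 in LPSEff vs LPS (SE 1.10, 95% interval 1.85 to 6.91, limma adjusted p = 0.171) and 2.21 in Eff vs Ctrl (SE 1.10, adjusted p = 0.915). It was called in LPSEff vs LPS by DESeq2 (adjusted p = 2.75e-04) and with only the 2 groups in the fit (limma adjusted p = 0.040). DESeq2 also called it in Eff vs Ctrl (adjusted p = 0.029). The fit of 2 groups leaves out the spread between the Eff samples, so it is not separate support. With no filter beyond a mean above 0, limma called no member in LPSEff vs LPS. Rpl39l averaged 6.78 normalized counts in Ctrl and 7.53 in LPS, so it reached the threshold of 10 only through the efferocytic samples. None of its 50-base coding windows was copied. Within Eff the fibroblast markers differed in the same direction, since their sum was 5422 in the Eff sample with 7.89 normalized counts of Rpl39l and 8820 in the one with 128, and the matrix genes Efemp1 (48.2 and 227), Dcn (21.9 and 107) and Igfbp6 (28.0 and 162) differed likewise between these 2 samples. Within LPSEff the order was the opposite, with a marker sum of 15189 beside 135 normalized counts of Rpl39l and 12084 beside 189, and 1 LPS sample had a marker sum of 6066 with Rpl39l at 3.88. Whether the Rpl39l reads came from the fibroblasts was not tested. Rpl39 itself, with 31.9% of windows copied, had 200 and 353 in Ctrl, 327 and 452 in LPS, against 332 and 382 in Eff and 382 and 479 in LPSEff.

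Rps3a1, a small subunit protein with 88.3% of windows copied, had 91.4 and 133 normalized counts in Ctrl, 115 and 99.5 in LPS, against 112 and 148 in Eff and 188 and 225 in LPSEff. The LPSEff samples were above all others, with a difference of 0.94 to LPS (SE 0.27, adjusted p = 0.230). The other large differences were those of Rps29 (1.21, SE 0.70, at 3.88 to 19.0 normalized counts) and, in the other direction, Rps26 (-0.64, SE 0.21) and Rpl35 (-0.64, SE 0.43) in LPSEff vs LPS, with adjusted p-values from 0.316 to 0.706. In Eff vs Ctrl they were those of Rpl19 (0.95, SE 0.44), Rpl7 (-0.67, SE 0.26) and Rpl3l (-1.05, SE 1.10), with adjusted p-values from 0.730 to 0.999.

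**Figure D5:**
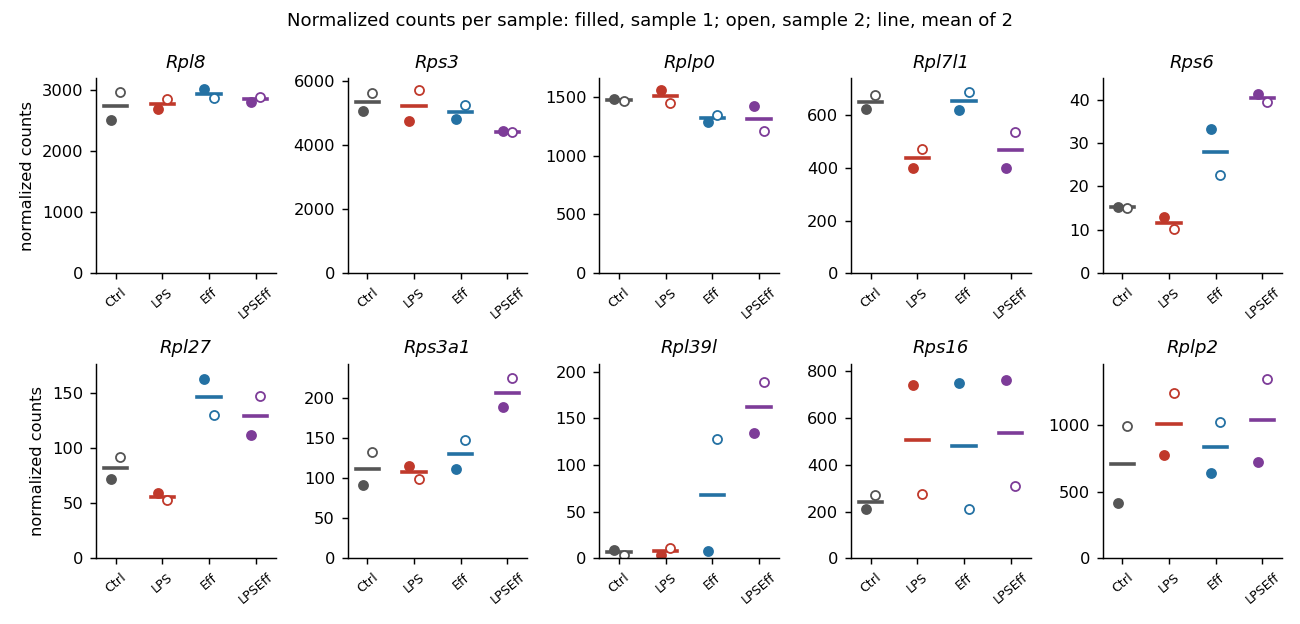
Normalized counts of 10 genes in each sample (filled circle, sample 1; open circle, sample 2; line, mean of 2), with the y axis of each panel from 0. Rpl8, Rps3 and Rplp0 vary little between groups, Rps6 and Rpl27 are higher in all 4 efferocytic samples, Rpl39l is high in 1 Eff sample and both LPSEff samples, and Rps16 is high in 3 samples of different groups.

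Several paralog pairs were measured together. The main fit called neither gene of any pair. DESeq2 called Rpl39l as above, as did limma in LPSEff vs LPS with only the groups compared. With the replicate block Rpl39, Rpl39l and Rpl7l1 were called in at least 1 comparison. With equal totals Rpl7l1 and Rpl22 were called lower in both LPS/IFNγ comparisons and Rps27l in LPSEff vs Eff. Rpl7l1 was also called lower in both with quantile normalization. Rpl3l, a form of Rpl3 that is typical of muscle, had between 0.792 and 20.3 normalized counts in the 8 samples, whereas Rpl3 had between 166 and 456. Rpl22l1 had 168 and 135 normalized counts in Ctrl, 93.1 and 141 in LPS, against 78.9 and 114 in Eff and 104 and 114 in LPSEff. Rps27l, a p53 target, had between 500 and 1051 normalized counts, and Rps27, with all windows copied, between 36.6 and 60.5. Rps4x on the X chromosome had between 49.4 and 82.8, and Rpl10, also on the X chromosome, between 58.4 and 97.3. Their autosomal relatives stayed low, with Rps4l between 2.59 and 17.3 and Rpl10l between 0 and 3.81, which is at most 4 reads in any sample. Per kb of coding length, Rps27l (2686 normalized counts) stood above Rps27 (180) and Rpl7l1 (749) above Rpl7 (255), while the copied shares were 48.3% against 100% and 21.9% against 77.5%.

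The third comparison asked whether the LPS/IFNγ effect itself differed between naïve and efferocytic Mϕ. The interaction was called for 0 of 82 members and for 0% of the 16309 tested genes (limma), and by edgeR and DESeq2 also for 0 members. At an unadjusted p under 0.05 stood 0 members in the main fit and with DESeq2, and 1 with edgeR. With the replicate block limma had 3 such members and called 0. The members' median interaction was -0.10, with quartiles of -0.28 and 0.17, and the median standard error of 0.41 leaves room for sizeable differences. Rpl39l had the largest value (2.17, 95% interval -1.41 to 5.74).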

How the data were processed

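Total RNA was sequenced from 8 samples, 2 in each of 4 groups, which were assigned by their labels. The authors trimmed reads with cutadapt, removed rRNA reads with Bowtie2, aligned to mm39 with STAR, counted with htseq-count and normalized with DESeq2. Versions are not given in the sources used here. The deposited signal values are counts divided by a size factor per sample (normalized counts), and whole reads were recovered from 100% of the values within 0.01 of a read. Genes averaging 10 or more normalized counts were tested with limma 3.58.1 (R 4.3.3, all 8 samples, mean trend) on log2 values after adding a pseudocount of 1. On the recovered reads, edgeR 4.0.16 called 3991, 3509, 14, 126 and 0 of all genes, and DESeq2 1.42.0 called 3954, 3519, 204, 368 and 0, for LPS/IFNγ in naïve and in efferocytic Mϕ, efferocytosis without and with LPS/IFNγ, and the interaction. Other filters, pseudocounts, scalings, added pseudogene rows and samples left out were tried, and the test was checked on simulated data. Symbols were found for 98.9% of gene IDs. Members, lists and the named genes (fixed by role, the 3 largest differences per direction and comparison, and the 3 highest and lowest per kb of exon) were chosen with earlier results of these data known. Genes named for a count of 5 or fewer, and genes of the printed sequences, were chosen after their values were seen. Some named genes are not reported here.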

Additional observations from a re-analysis of the deposited data

How the results depend on the processing

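In LPS vs Ctrl, the count of members called went from 0 to 11 with samples rescaled to equal totals and to 5 with quantile normalization, and in LPSEff vs Eff from 0 to 19 and 6, all lower. The median difference of the members moved to -0.46 and -0.54 with equal totals. With only the groups compared in the fit, 1 member (Rpl39l) was called in LPSEff vs LPS, and DESeq2 called 1 (Rpl39l) there and 1 (Rpl39l) in Eff vs Ctrl. Leaving out 1 sample at a time gave 0 to 2 calls in LPSEff vs Eff (2 without Eff replicate 2, Rpl39l higher and Rpl12 lower) and 0 to 1 in LPSEff vs LPS (Rpl39l, without either Eff sample). In a group with 1 sample left, that sample is assumed to vary like the other groups. With pseudogene rows added, the members held 0.703% of the normalized counts in Ctrl, 0.559% in LPS, 0.684% in Eff and 0.485% in LPSEff. The difference of Rpl8 in LPS vs Ctrl turned to -0.66 with quantile normalization and -0.38 with equal totals, and ranged from -0.10 (without Ctrl replicate 1; -0.022 without LPS replicate 2) to 0.14 with 1 sample left out. That of Rps3 turned to 0.0020 with DESeq2 and ranged from -0.17 to 0.10 with 1 sample left out, above 0 without Ctrl replicate 2 (0.04) and without LPS replicate 1. That of Rplp0 turned to -0.40 with quantile normalization and -0.37 with equal totals, and ranged from -0.022 (without LPS replicate 1) to 0.083. The cause was not tested for any of these. Apart from the replicate block, the remaining alternatives, other pseudocounts and filters and edgeR without the block among them, left every count of members called at 0.

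The samples share the numbers 1 and 2 across groups, and no label says that a number marks a shared mouse, batch or day. With the replicate block, limma called 6 members in LPS vs Ctrl (Rpl26, Rpl39, Rplp2 and Rps20 higher, Rpl10a and Rpl7l1 lower), 5 in LPSEff vs Eff (Rps3a1 higher, Rpl10a, Rpl12, Rpl7l1 and Rps2 lower), 6 in LPSEff vs LPS (Rpl27, Rpl39l, Rps3a1 and Rps6 higher, Rps24 and Rps26 lower) and 0 in Eff vs Ctrl and for the interaction. All genes called with the block numbered 6717 (41.2%), 6033 (37.0%), 1137 (6.97%), 436 and 0 in that order. With edgeR and the replicate block, an alternative chosen after seeing the data, 7, 6 and 6 members were called in the first 3, against 40.9%, 38.7% and 7.56% of all tested genes. The deviations of same-numbered samples from their group means correlated over all tested genes with r of 0.404 to 0.595, and over the members with 0.0465 to 0.164 between Ctrl and the other groups and 0.641 to 0.685 among LPS, Eff and LPSEff.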
